A study of Drosophila melanogaster with 9 samples.

Results

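The cuticle protein genes of Drosophila melanogaster were followed across 3 genotypes in RNA labelled as coming from heads of virgin females, 10 days old. Members were taken by gene symbol: every symbol that starts with Cpr, Ccp84, Lcp or Twdl, plus Acp65Aa and Acp1. This gave 120 of the 16837 genes listed. The symbol Cpr without a number belongs to cytochrome P450 reductase and not to a cuticle protein, so 119 cuticle protein genes remained. They were 70 Cpr, 25 Twdl, 15 Lcp, 7 Ccp84 and 2 Acp genes. The first genotype was Chd1-deficient, titled Chd1[-/-], a deletion of the chromatin remodeller gene Chd1. The second was elav-Gal4>UAS-Chd1 (here elav>Chd1), in which a Chd1 transgene is switched on in neurons through elav-Gal4. The third was labelled wildtype and titled Chd1[WT/WT] (here wild type). Each genotype had 3 libraries. The sample labels call the elav>Chd1 flies rescued, whereas the series text lists rescued flies as a genotype of their own without naming a wild type. The labels leave unsaid whether the deletion is present in elav>Chd1 flies, and whether the flies labelled wild type carry a restored copy of Chd1 is not settled by the labels.

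The insect cuticle is secreted by epidermal cells as chitin fibres embedded in protein. Most proteins named Cpr, Lcp and Ccp84, and Acp65Aa, carry the Rebers and Riddiford consensus, a chitin-binding domain. Tweedle (Twdl) proteins are a separate family without that domain, and mutations of some of its members change larval body shape. Larval cuticle proteins (Lcp) were first isolated from larval cuticle, while Acp1 and Acp65Aa were described as adult cuticle proteins. In the head, cuticle covers the capsule, antennae and mouthparts, and forms the corneal lenses of the compound eye. Many of these genes sit side by side as products of gene duplication.

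The deposited values are TPM, an abundance per transcript length scaled to a near-constant total (999685 to 999850 TPM per library), so the sequencing depth is unknown. Chd1 itself stood at 19.5 ± 1.07 TPM in Chd1-deficient, 63.5 ± 0.314 TPM in elav>Chd1 and 102 ± 8.12 TPM in wild-type libraries (SD, n = 3 each), which matches the order of the labels. The tissue and sex labels are in doubt. The 6 ovary markers summed to 20391 to 22064 TPM in Chd1-deficient, 22228 to 24241 TPM in elav>Chd1 and 17493 to 22235 TPM in wild-type libraries, far above 6 neuron markers at 156 to 166 TPM, 59.6 to 62.1 TPM and 29.8 to 33.4 TPM. The 8 photoreceptor markers summed to 4773 to 4910 TPM, 1983 to 2011 TPM and 1188 to 1223 TPM in the same order of genotypes. Male germline and accessory gland markers, 5 of them, totalled 161 to 184 TPM in Chd1-deficient, 4.08 to 4.57 TPM in elav>Chd1 and 14.1 to 16.1 TPM in wild-type libraries. The 6 muscle markers totalled 1767 to 1825 TPM in Chd1-deficient, 965 to 982 TPM in elav>Chd1 and 303 to 305 TPM in wild-type libraries. None of these 5 lists had a marker at 0 in all libraries of a genotype. In RNA of whole tissue, fewer cells of a type and less RNA per cell cannot be told apart. Separate fly pools behind the libraries of a genotype are not mentioned in the labels, so the p-values cover library-to-library spread, possibly technical.

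More cuticle protein genes reached 1 TPM in Chd1-deficient libraries than in the others. More were listed above 0 than in wild type, but not more than in elav>Chd1. Above 0 TPM were 82 to 84 of them in Chd1-deficient, 85 to 87 in elav>Chd1 and 63 to 69 in wild-type libraries. Of all 16837 genes, 14766 to 14835, 13558 to 13601 and 13591 to 13655 were above 0 in the same order. A mean of at least 1 TPM was reached by 44 of the 119 genes in Chd1-deficient, 31 in elav>Chd1 and 25 in wild-type libraries. The corresponding shares of all 16837 genes were 66.7%, 58.1% and 54.7%. Library by library, 42 to 45 genes reached 1 TPM in the Chd1-deficient group, 30 to 34 in the elav>Chd1 group and 23 to 26 in the wild-type group, and the groups did not overlap. At 10 TPM the counts were 17, 10 and 5 genes, and at 100 TPM they were 4, 3 and 0. The shares of all genes were 43.2%, 41.8% and 40.0% at 10 TPM and 8.68%, 8.77% and 10.5% at 100 TPM. Of the Cpr genes 33 of 70 reached a mean of 1 TPM in Chd1-deficient, 23 in elav>Chd1 and 20 in wild-type libraries. Of the 7 Ccp84 genes 3 did so in Chd1-deficient libraries, 0 in elav>Chd1 and 0 in wild type. Of the 25 Twdl genes 3, 3 and 0 did so in the same order, while Lcp stayed at 3 of 15 and Acp at 2 of 2 in each genotype. The Lcp genes were not all the same. Beside Lcp1 and Lcp65Ag2 stood Lcp65Ac in Chd1-deficient libraries and Lcp65Ag3 in the other genotypes. Lcp65Ac had 1.98, 1.66 and 0.995 TPM in Chd1-deficient libraries and at most 0.656 TPM elsewhere.

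**Figure D1:**
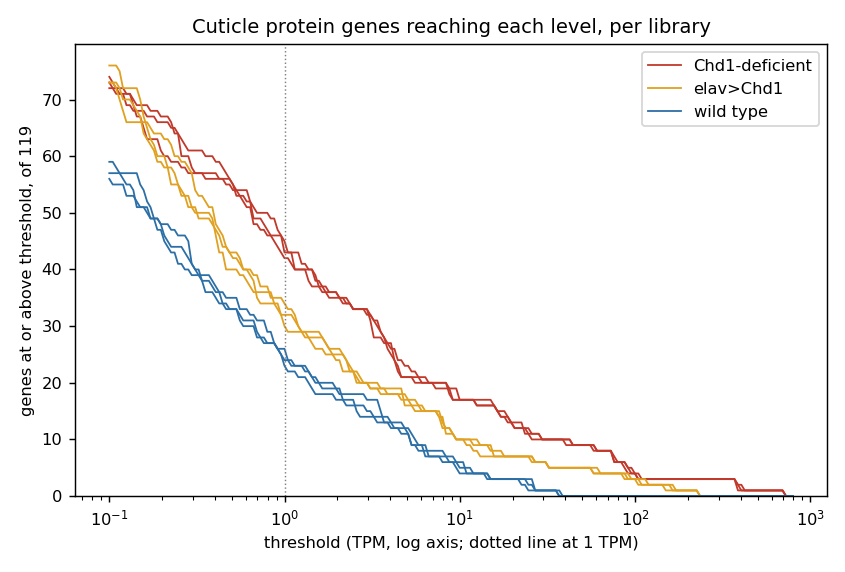
Number of the 119 cuticle protein genes (vertical axis) at or above each TPM threshold (horizontal log axis), 1 line per library, coloured by genotype. At 1 TPM the Chd1-deficient lines lie at 42 to 45 genes, the elav>Chd1 lines at 30 to 34 and the wild-type lines at 23 to 26.

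Most of the family was near silent. Of the 119 genes, 65 did not reach 1 TPM in any of the 9 libraries, and 9 of these were listed at 0 throughout, namely Cpr65Av, Cpr65Aw, Cpr65Ax1, Lcp65Ab2, Lcp65Ae, TwdlH, TwdlJ, TwdlK and TwdlO. A further 6 genes reached 1 TPM in only 1 or 2 libraries. The remaining 48 met the filter for testing, 1 TPM or more in 3 or more libraries. Of these, 12 passed through Chd1-deficient libraries alone, 2 through elav>Chd1 alone (Cpr65Ea and TwdlF) and 1 through wild type alone (Cpr65Ax2). Those 15 genes had to differ between genotypes to be tested at all. At the other end, 18 genes stood at 1 TPM or more in all 9 libraries.

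The summed level of the 119 genes was 2258 to 2271 TPM in Chd1-deficient, 835 to 857 TPM in elav>Chd1 and 199.6 to 201 TPM in wild-type libraries. Acp1, Acp65Aa and Cpr49Ae made up 65.5% ± 0.210 of that sum in Chd1-deficient, 58.7% ± 0.971 in elav>Chd1 and 34.8% ± 0.874 in wild-type libraries (SD, n = 3 each). Without these 3 genes, the other 116 summed to 779 to 785 TPM, 344 to 352 TPM and 128 to 133 TPM in the same order, so the order of the genotypes did not rest on them. By family, Cpr genes summed to 1120.0 ± 4.17 TPM in Chd1-deficient, 544 ± 2.71 TPM in elav>Chd1 and 132 ± 2.10 TPM in wild-type libraries (SD, n = 3 each). The Lcp genes summed to 9.40 ± 0.464 TPM, 22.6 ± 3.78 TPM and 20.4 ± 2.09 TPM, a difference that rested on Lcp1. Without it the other 14 summed to 7.56 to 8.80 TPM in Chd1-deficient, 6.35 to 8.87 TPM in elav>Chd1 and 8.81 to 10.3 TPM in wild-type libraries. The elav>Chd1 range overlapped both others, and those of Chd1-deficient and wild type nearly met. The Twdl genes stood at 8.83 ± 0.943 TPM, 10.2 ± 0.915 TPM and 2.62 ± 0.680 TPM, with the Chd1-deficient and elav>Chd1 ranges overlapping (8.17 to 9.91 TPM and 9.18 to 10.9 TPM).

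**Figure D2:**
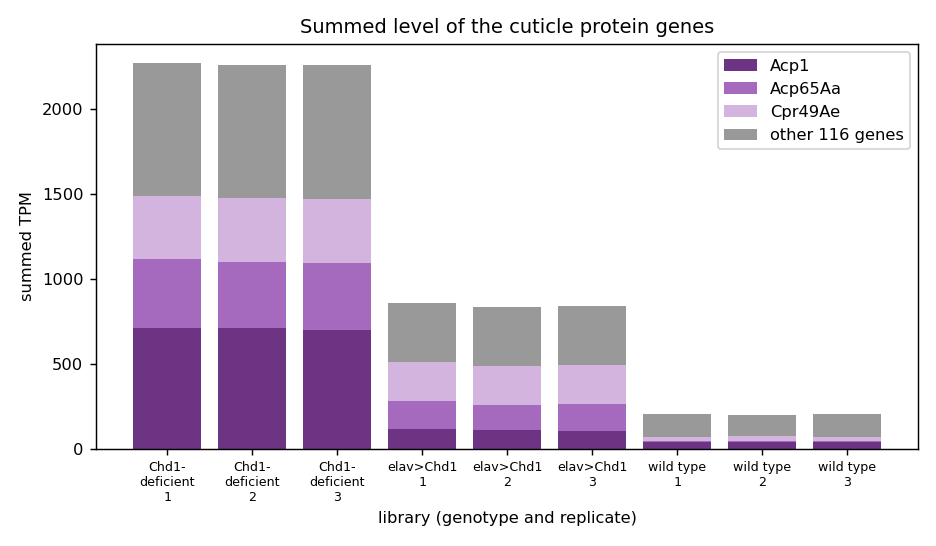
Summed TPM of the 119 cuticle protein genes in each of the 9 libraries, with Acp1, Acp65Aa and Cpr49Ae shown as coloured parts of each bar and the other 116 genes in grey. The 3 Chd1-deficient bars stand at 2258 to 2271 TPM, above the elav>Chd1 bars at 835 to 857 TPM and the wild-type bars at 199.6 to 201 TPM.

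Chd1-deficient against wild type was the comparison of the deletion with the group labelled wildtype. Adult cuticle genes and most expressed Cpr genes were higher in Chd1-deficient libraries, and 4 genes were lower. Of the 48 tested genes 40 were called higher, 4 lower and 4 neither, at a limma adjusted p under 0.05 over all 11094 genes tested. Of those 11094 genes, 42.9% were called higher and 46.0% lower, so a call by itself was common in this comparison. The median log2 fold change, on the log2(TPM + 0.5) scale used throughout, was 2.07 over the 48 genes and -0.05 over all genes tested. Past a log2 difference of 1 in either direction were 36 higher and 4 lower genes, against 27.1% and 2.06% of all genes. A filter that used only the libraries of the genotype left out of the comparison (at least 1 TPM in all 3 elav>Chd1 libraries) tested 28 of the genes, of which 23 were higher and 1 lower, against 35.0% and 53.6% of the 9489 genes then tested. Among the 18 genes that passed a filter of 10 TPM, 17 were higher and 1 lower, against 24.8% and 65.0% of all genes. Of these 18, Ccp84Ab, Cpr97Ea, Cpr100A, Cpr62Bc, Cpr62Bb, Cpr49Ag, Cpr97Eb and Cpr72Ec reached 10 TPM in Chd1-deficient libraries alone. They had to be higher there to pass that filter. Cpr47Ea, Cpr57A, Cpr67B and Cpr92F reached 10 TPM in Chd1-deficient and elav>Chd1 libraries but in no wild-type library. Lcp1 did so in elav>Chd1 and wild-type libraries only. For these genes too the filter was met without any library of the genotype that stood lower. Over all 119 genes, tested or not, the 3 libraries of each genotype did not overlap for 53 higher and 5 lower genes, against 40.2% and 30.5% of all 16837. The share of higher genes was thus not far above that of all genes. By family, 32 of 36 tested Cpr genes were higher and 2 lower. All 3 tested Ccp84 genes and both Acp genes were higher, as were 3 of 4 Twdl genes. Of 3 Lcp genes 0 were higher and 2 lower. The 12 genes that passed the filter of 1 TPM through Chd1-deficient libraries alone had to be higher there. They were these 3 Ccp84 genes and otherwise Cpr genes. Cpr65Ax2, called lower, passed through wild-type libraries alone and had to be lower.

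Acp65Aa, an adult cuticle protein (FBgn0020765; chromosome 3L, 6152050 to 6152745), had the highest fold change of the tested genes on the log2(TPM + 0.5) scale. In the authors' deposited table Ccp84Ad is higher, at a log2 fold change of 6.539 against 5.73 for Acp65Aa. It stood at 406, 386 and 397 TPM in Chd1-deficient libraries, 165, 149 and 157 TPM in elav>Chd1, and 4.77, 7.99 and 10.6 TPM in wild-type libraries. The 3 genotypes did not overlap, and wild type showed the widest relative spread. The log2 fold change of Chd1-deficient against wild type was 5.65 (SE 0.20, limma adjusted p = 2.5e-09).

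Acp1, the other adult cuticle protein (FBgn0014454; chromosome 2L, 7740562 to 7741537), was the most abundant gene of the family. Its levels were 713, 711 and 699 TPM in Chd1-deficient libraries, 115.3, 109 and 103 TPM in elav>Chd1, and 37.0, 36.9 and 36.4 TPM in wild-type libraries. Replicates lay close together and the genotypes far apart. The log2 fold change to wild type was 4.25 in Chd1-deficient libraries (SE 0.04, limma adjusted p = 1.0e-12).

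Cpr92F (FBgn0038819; chromosome 3R, 20669571 to 20672821) stood at 103, 107 and 103 TPM in Chd1-deficient libraries, 25.8, 26.7 and 24.9 TPM in elav>Chd1, and 3.30, 3.19 and 3.44 TPM in wild-type libraries. The 3 genotypes formed 3 separate steps. The log2 fold change against wild type was 4.78 in Chd1-deficient libraries (SE 0.05, limma adjusted p = 1.1e-12). Cpr49Ae, the most abundant Cpr gene, had 373, 382 and 378 TPM in Chd1-deficient libraries, 233, 227 and 230 TPM in elav>Chd1, and 26.7, 26.5 and 22.4 TPM in wild-type libraries. Here elav>Chd1 lay nearer to Chd1-deficient than to wild type, and the log2 fold change of Chd1-deficient against wild type was 3.88 (SE 0.06, limma adjusted p = 5.3e-12).

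The other Cpr genes among the largest rises differed in where elav>Chd1 stood. Cpr97Ea had 19.2, 19.8 and 19.0 TPM in Chd1-deficient libraries, against 0.638, 1.04 and 0.701 TPM in elav>Chd1 and 0.921, 0.932 and 0.691 TPM in wild type. The elav>Chd1 and wild-type libraries overlapped and the Chd1-deficient libraries stood alone. Cpr62Bc had 73.4, 72.9 and 74.8 TPM in Chd1-deficient libraries, against 4.71, 4.45 and 4.87 TPM in elav>Chd1 and 5.15, 5.80 and 6.45 TPM in wild type, so that elav>Chd1 lay slightly below wild type. Cpr100A, with 76.3, 75.8 and 73.05 TPM in Chd1-deficient libraries, had 9.12, 9.28 and 9.47 TPM in elav>Chd1 and 6.11, 5.28 and 5.52 TPM in wild type. Cpr47Ea showed the opposite arrangement, with elav>Chd1 close to the deletion: 22.5, 18.5 and 20.5 TPM in Chd1-deficient libraries, 12.7, 11.6 and 14.5 TPM in elav>Chd1, and 0.972, 1.39 and 1.38 TPM in wild-type libraries. Cpr47Ea overlaps the odorant receptor gene Or47a on the other strand, which averaged 0.116 TPM, 0.183 TPM and 0 TPM in the same order.

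**Figure D3:**
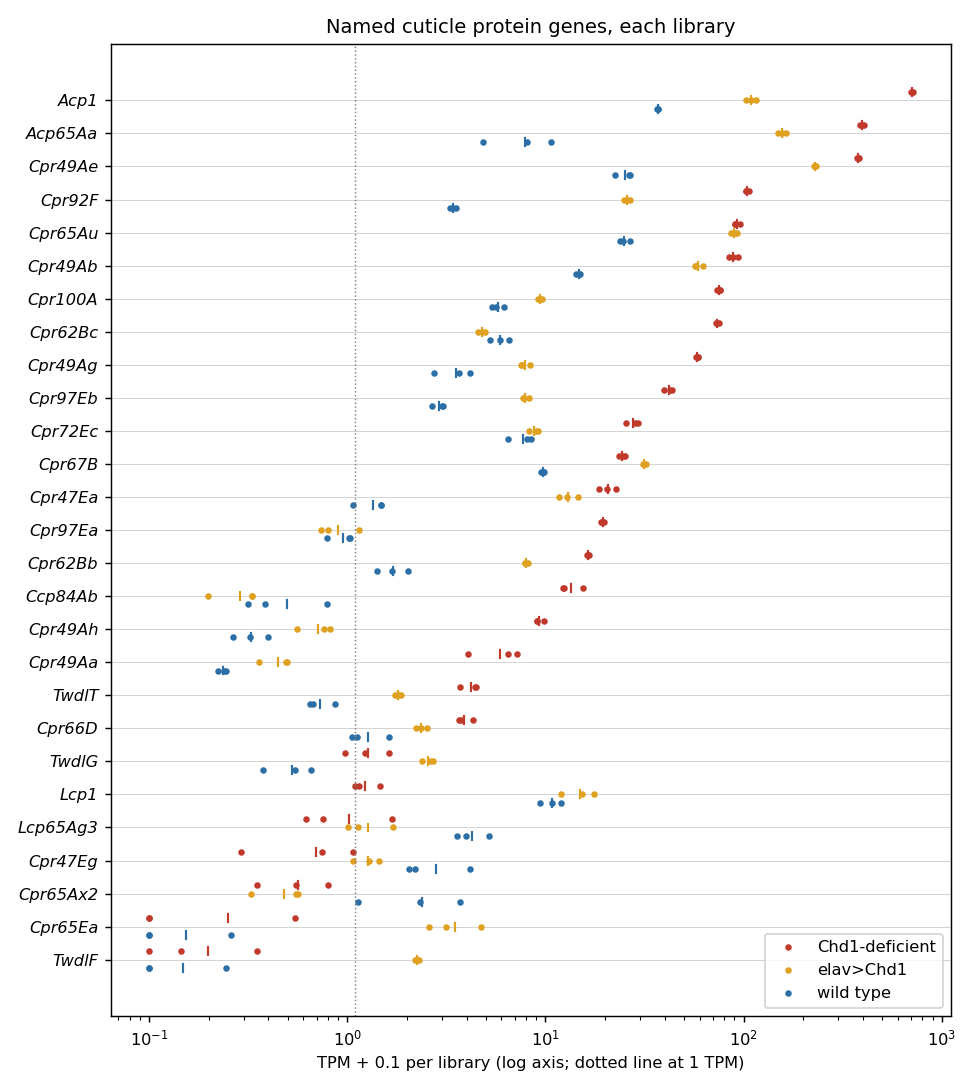
TPM + 0.1 (horizontal log axis) of the 27 cuticle protein genes named by rule, with 1 point per library and a vertical tick at the mean of each genotype (Chd1-deficient above elav>Chd1 above wild type within each gene). Acp1 and Acp65Aa show 3 separate groups of points, whereas for Cpr97Ea and Ccp84Ab only the Chd1-deficient points lie above the dotted line at 1 TPM in all 3 libraries.

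Head transcripts of other kinds moved with these genes. The 14 neuron and photoreceptor markers all stood above wild type in Chd1-deficient libraries, with log2 fold changes of 1.1002 (norpA) to 2.82 (Rh6) and a median of 2.17, close to the median of 2.07 over the tested cuticle protein genes. Of the 48 genes, 16 lay above the range of those markers, 20 within it and 12 below it. Above it were both Acp genes, Ccp84Aa, Ccp84Ab and 12 Cpr genes, among them Cpr92F, Cpr49Ag and Cpr97Eb. Of these, Ccp84Aa, Ccp84Ab, Cpr11B, Cpr49Aa and Cpr49Ah passed the filter through Chd1-deficient libraries alone and had to be higher there. Cpr65Ax2, below the range, passed through wild-type libraries alone and had to be lower. The 6 muscle markers were all called higher as well (median log2 fold change 2.59), as were the 5 male markers (median 3.42). Ovary markers went mostly the other way, with 4 of 6 called lower (osk, nos, Cp36 and Cp38) and a median of -0.72. Vm26Aa was called higher and Vm34Ca neither way. The part of tissue makeup and sex in the cuticle values was not tested.

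Genes of 1 chromosomal group did not always move alike. With the annotation of the dm6 assembly, 91 of the 119 genes fell into 17 groups of neighbours less than 50000 bases apart, and 28 stood alone. Chromosome arm 3L held 46 of the genes, 3R held 31, 2R held 27, X held 8 and 2L held 7. The 8 genes from Cpr49Aa to Cpr49Ah on 2R (12376626 to 12415170) formed a group with 7 members at a mean of 1 TPM or more in Chd1-deficient libraries and 3 in each of the other genotypes. The 7 tested were called higher in Chd1-deficient than in wild type, but 4 of them (Cpr49Aa, Cpr49Ac, Cpr49Af and Cpr49Ah) passed the filter through Chd1-deficient libraries alone and had to be higher there. Cpr49Ag had 57.3, 58.6 and 58.5 TPM in Chd1-deficient libraries, 8.31, 7.48 and 7.45 TPM in elav>Chd1, and 2.65, 4.05 and 3.57 TPM in wild-type libraries, with no overlap (log2 fold change against wild type 3.92, SE 0.12, limma adjusted p = 6.2e-10). Cpr49Ah stood at 9.76, 9.01 and 8.93 TPM in Chd1-deficient libraries, against 0.720, 0.665 and 0.458 TPM in elav>Chd1 and 0.223, 0.165 and 0.297 TPM in wild type. For both of them elav>Chd1 lay nearer to wild type than to Chd1-deficient. Cpr49Ab, in the same group, was at 88.6 ± 4.66 TPM in Chd1-deficient, 58.7 ± 3.07 TPM in elav>Chd1 and 14.6 ± 0.368 TPM in wild-type libraries (SD, n = 3 each), with elav>Chd1 nearer to Chd1-deficient.

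Of the 7 Ccp84A genes on 3R (6686728 to 6704903), 3 stood well above both other genotypes in Chd1-deficient libraries. Ccp84Ab had 12.2, 12.3 and 15.4 TPM in Chd1-deficient libraries, against 0.232, 0.0977 and 0.229 TPM in elav>Chd1 and 0.691, 0.287 and 0.216 TPM in wild type. Ccp84Ad was listed at 0 in all 3 wild-type libraries. Ccp84Aa and Ccp84Ad, picked with their values known, had 3.86 to 4.75 TPM and 1.48 to 1.72 TPM in the 3 Chd1-deficient libraries, against at most 0.401 TPM and 0.0919 TPM in the other 6. All 3 passed the filter through Chd1-deficient libraries alone. The other 4 genes of the group stayed under 1 TPM in every library.

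The largest group, 18 genes on 3L (6130386 to 6161589), mixed all patterns. Acp65Aa and Cpr65Au made up 98.4% ± 0.0861 of its summed level in Chd1-deficient, 97.1% ± 0.424 in elav>Chd1 and 73.5% ± 1.21 in wild-type libraries (SD, n = 3 each). Of the others, 5 were listed at 0 throughout, 7 more stayed at or under 0.406 TPM in every library, and Lcp65Ag3 and Cpr65Ax2 were lower in Chd1-deficient than in wild type. Cpr65Au had 96.3, 90.3 and 90.7 TPM in Chd1-deficient libraries, 86.0, 92.4 and 90.6 TPM in elav>Chd1, and 26.5, 24.5 and 23.8 TPM in wild-type libraries. Chd1-deficient and elav>Chd1 overlapped there, and wild type lay below both. An antisense RNA gene overlaps Cpr65Au and Lcp65Ag3 on the other strand, and since no source used here gives the strand used in counting, the level of both is uncertain. The 12 neighbouring Twdl genes from TwdlM to TwdlD on 3R (26619118 to 26641054) had 0 genes at a mean of 1 TPM in any genotype.

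**Figure D4:**
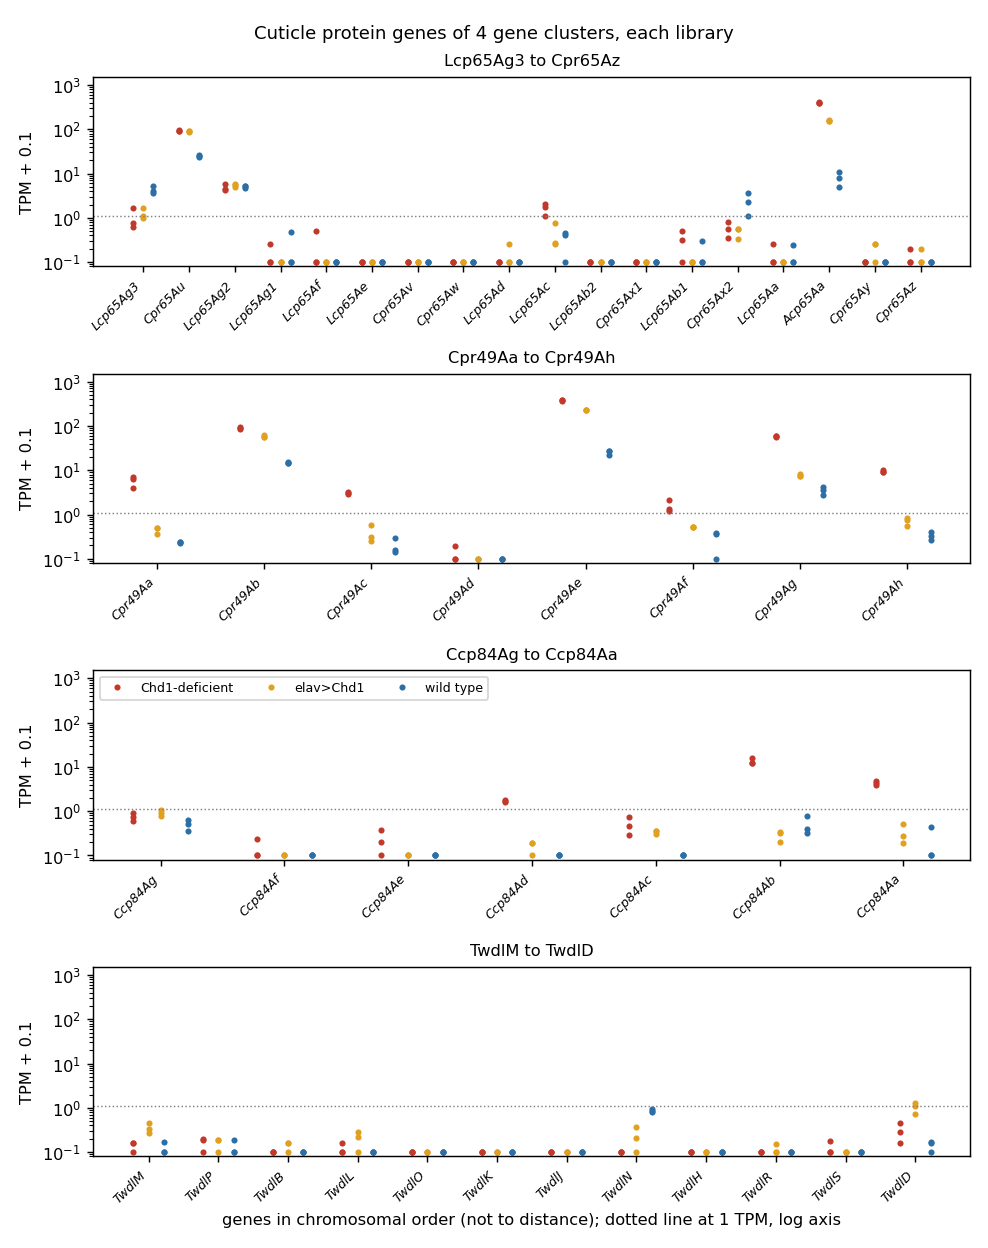
TPM + 0.1 (vertical log axis) for the genes of 4 chromosomal groups in chromosomal order, with 1 point per library coloured by genotype (Chd1-deficient left, elav>Chd1 middle, wild type right) and a dotted line at 1 TPM. In the group from Cpr49Aa to Cpr49Ah 7 of 8 genes reach a mean of 1 TPM in Chd1-deficient libraries, whereas from TwdlM to TwdlD 0 of 12 do so in any genotype.

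The 4 genes that fell in Chd1-deficient against wild-type libraries were Lcp1, Lcp65Ag3, Cpr47Eg and Cpr65Ax2. Of these, Cpr65Ax2 passed the filter through wild-type libraries alone and had to be lower in Chd1-deficient libraries. Lcp1, a larval cuticle protein (FBgn0002531; chromosome 2R, 8430115 to 8431243), had 1.04, 0.988 and 1.36 TPM in Chd1-deficient libraries, against 11.9, 15.1 and 17.5 TPM in elav>Chd1 and 11.9, 9.31 and 10.7 TPM in wild type. It was the only one of the 4 to exceed 10 TPM in any library, and its log2 fold change against wild type was -2.77 (SE 0.15, limma adjusted p = 3.6e-08). Its neighbours Lcp2, Lcp3 and Lcp4 stayed under 1 TPM in every library. Lcp65Ag3 stood at 0.653, 0.522 and 1.58 TPM in Chd1-deficient libraries, 0.907, 1.60 and 1.03 TPM in elav>Chd1 and 5.10, 3.89 and 3.48 TPM in wild-type libraries. Its near-copy Lcp65Ag2, chosen after its values were seen, had 4.23 to 5.64 TPM in Chd1-deficient, 4.82 to 5.85 TPM in elav>Chd1 and 4.56 to 5.12 TPM in wild-type libraries, all overlapping. Reads of near-identical copies may be split between Lcp65Ag1, Lcp65Ag2 and Lcp65Ag3, and between Cpr65Ax1 and Cpr65Ax2, so each of these levels is uncertain. Cpr47Eg had 0.191, 0.643 and 0.963 TPM in Chd1-deficient libraries, 1.19, 0.966 and 1.35 TPM in elav>Chd1 and 1.96, 2.10 and 4.04 TPM in wild-type libraries (log2 fold change against wild type -1.55, limma adjusted p = 4.3e-04). The 4 genes called neither way were Lcp65Ag2, Cpr78E, TwdlF and Cpr65Ea, with log2 fold changes from -0.05 to 0.17.

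**Figure D5:**
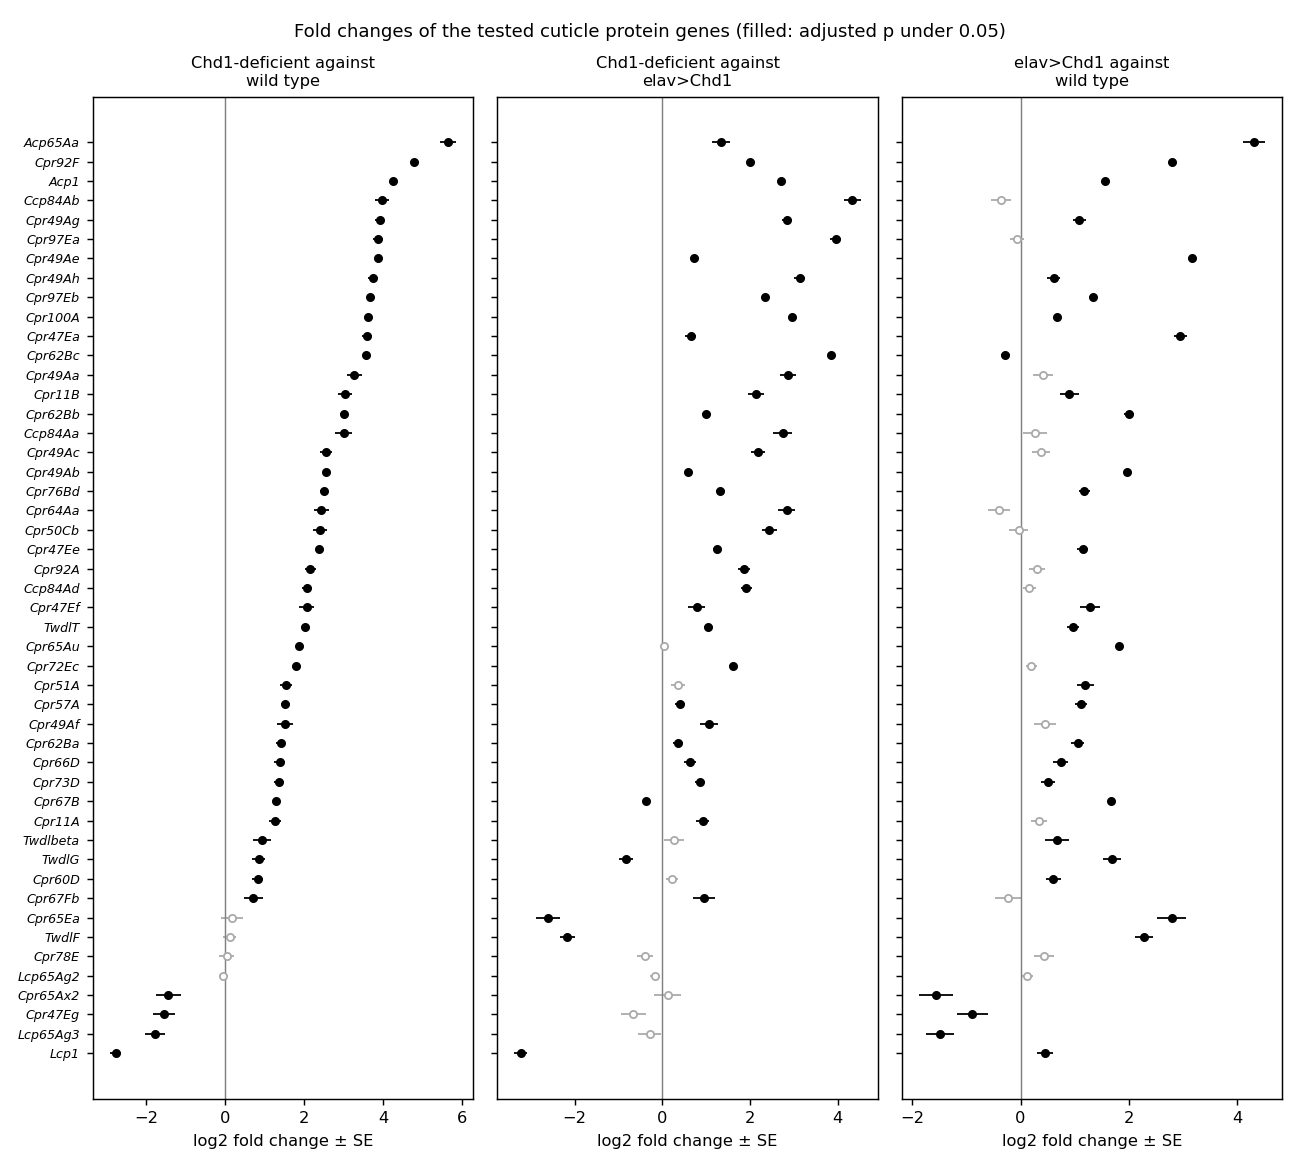
Log2 fold change ± SE (limma, 9 libraries in the fit) of the 48 tested cuticle protein genes in the 3 comparisons, ordered by the first panel. Filled points have an adjusted p under 0.05, of which 40 are higher and 4 lower in the first panel, 34 and 5 in the middle panel, and 29 and 4 in the last.

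Chd1-deficient against elav>Chd1 set the deletion against flies with the neuronal Chd1 transgene. Of the same 48 genes 34 were called higher in Chd1-deficient, 5 lower and 9 neither (limma adjusted p under 0.05). Of all 11094 genes tested, 34.7% were called higher and 33.7% lower. The median log2 fold change was 0.97 over the 48 genes and -0.02 over all genes. Past a log2 difference of 1 were 24 higher and 3 lower genes, against 15.8% and 1.53% of all genes. When the filter used wild-type libraries only, 22 genes were tested and 13 were higher and 2 lower, against 24.3% and 41.0% of all genes then tested. With the filter of 10 TPM, 15 of 18 were higher and 2 lower, against 21.4% and 45.5%. Those of the 18 named above as reaching 10 TPM in Chd1-deficient libraries alone had to be higher here too. Lcp1 met that filter without any Chd1-deficient library. The libraries did not overlap for 42 higher and 14 lower of the 119 genes, against 34.8% and 27.4% of all genes. The share of higher genes was thus about that of all genes. The 14 neuron and photoreceptor markers were higher too (log2 fold changes 0.74 to 2.17, median 1.30). Of the 48 genes 13 lay above that range, 15 within it and 20 below it. Those above included Ccp84Aa, Ccp84Ab, Cpr49Aa, Cpr49Ac, Cpr49Ah, Cpr50Cb and Cpr64Aa, which passed the filter through Chd1-deficient libraries alone. They had to be higher there. Cpr65Ea and TwdlF, below it, passed through elav>Chd1 libraries alone and had to be lower. Medians of the male, muscle and ovary markers were 4.14, 0.78 and -0.43. Their part in the cuticle values was not tested. This comparison shares the Chd1-deficient libraries with the one against wild type.

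Among genes that averaged 5 TPM in either genotype, Ccp84Ab had the highest log2 fold change of Chd1-deficient against elav>Chd1, at 4.33 (SE 0.19, limma adjusted p = 1.8e-08), followed by Cpr97Ea at 3.95 (SE 0.13, limma adjusted p = 2.0e-09) and Cpr62Bc at 3.84 (SE 0.08, limma adjusted p = 8.4e-11). Of such genes, Cpr49Ah, Cpr100A, Cpr49Aa and Cpr49Ag followed, between 2.83 and 3.13, and then Acp1 at 2.69. Ccp84Ab, Cpr49Ah and Cpr49Aa passed the filter through Chd1-deficient libraries alone, so they had to be higher there to be tested. Cpr49Aa had 7.09, 3.96 and 6.39 TPM in Chd1-deficient libraries, against 0.399, 0.258 and 0.389 TPM in elav>Chd1 and 0.144, 0.138 and 0.123 TPM in wild type. The summed male markers were at 161 to 184 TPM in Chd1-deficient libraries and at most 16.1 TPM elsewhere, and were lower in elav>Chd1 than in wild type. Mean levels in elav>Chd1 and wild type were 0.186 and 0.398 TPM for Ccp84Ab, 0.794 and 0.848 TPM for Cpr97Ea, and 4.67 and 5.80 TPM for Cpr62Bc. These means were also lower in elav>Chd1, although the libraries overlapped for Ccp84Ab and Cpr97Ea. Acp1, Cpr100A, Cpr49Ag, Cpr49Ah and Cpr49Aa had higher means in elav>Chd1 than in wild type. The part of the male transcripts in these values was not tested.

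The 5 genes lower in Chd1-deficient than in elav>Chd1 were Lcp1, Cpr65Ea, TwdlF, TwdlG and Cpr67B. Lcp1 differed most, its log2 fold change being -3.23 (SE 0.15, limma adjusted p = 2.3e-08). Cpr65Ea stood at 0, 0 and 0.448 TPM in Chd1-deficient libraries, 4.64, 2.47 and 3.06 TPM in elav>Chd1, and 0.160, 0 and 0 TPM in wild-type libraries. TwdlF showed the same arrangement, with at most 0.248 TPM in Chd1-deficient libraries, 2.09, 2.19 and 2.15 TPM in elav>Chd1, and at most 0.146 TPM in wild-type libraries. Both exceeded 0.5 TPM in elav>Chd1 libraries alone. They passed the filter through those libraries only and so had to be lower in Chd1-deficient libraries. TwdlG, the next gene to TwdlF on 3R, had 1.52, 0.878 and 1.13 TPM in Chd1-deficient libraries, 2.53, 2.27 and 2.60 TPM in elav>Chd1, and 0.555, 0.278 and 0.443 TPM in wild-type libraries. Cpr67B had 23.4, 25.1 and 24.5 TPM in Chd1-deficient libraries, 31.5, 31.0 and 31.9 TPM in elav>Chd1, and 9.77, 9.68 and 9.37 TPM in wild-type libraries, a small difference between the first pair (log2 fold change -0.37, SE 0.05, limma adjusted p = 6.9e-05). Among the 9 genes called neither way was Cpr65Au (log2 fold change 0.04, limma adjusted p = 0.45).

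elav>Chd1 against wild type asked how flies with the neuronal transgene differ from the group labelled wildtype. Of the 48 genes 29 were called higher in elav>Chd1, 4 lower and 15 neither (limma adjusted p under 0.05). Of all 11094 genes, 30.6% were called higher and 47.3% lower. The median log2 fold change was 0.67 over the 48 genes and -0.15 over all genes, with 20 genes higher and 2 lower past a log2 difference of 1, against 7.19% and 1.25% of all genes. Of the 39 genes tested when the filter used Chd1-deficient libraries only, 27 were higher and 1 lower, against 30.5% and 48.7% of all genes then tested. With the filter of 10 TPM, 14 of 18 were higher and 1 lower, against 21.1% and 64.0%. Of these 18, Cpr47Ea, Cpr57A, Cpr67B and Cpr92F reached 10 TPM in elav>Chd1 but in no wild-type library. For them the filter was met without any library of the genotype that stood lower. The libraries did not overlap for 47 higher and 6 lower of the 119 genes, against 24.4% and 32.8% of all genes. The 14 neuron and photoreceptor markers ran from 0.12 to 1.09 with a median of 0.75. Of the 48 genes, 19 lay above that range, 20 within it and 9 below it. Of those above it, TwdlF and Cpr65Ea passed the filter through elav>Chd1 libraries alone and had to be higher there. Cpr65Ax2, below it, passed through wild-type libraries alone and had to be lower. The 6 muscle markers were all called higher too, and their median of 1.66 also lay above that range. Their part in the cuticle values was not tested.

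The rises were led by Acp65Aa (log2 fold change 4.31, SE 0.20, limma adjusted p = 5.7e-08), Cpr49Ae (3.17, SE 0.06, limma adjusted p = 6.7e-11) and Cpr47Ea (2.95, SE 0.12, limma adjusted p = 2.2e-08). Cpr92F stood at 2.79, Cpr62Bb at 2.004, Cpr49Ab at 1.97, Cpr65Au at 1.83 and Cpr67B at 1.66. TwdlF and Cpr65Ea, which passed the filter through elav>Chd1 libraries alone, had 2.28 and 2.79. The 4 genes called lower were Cpr65Ax2, Lcp65Ag3, Cpr47Eg and Cpr62Bc. Cpr65Ax2 had 0.464, 0.451 and 0.226 TPM in elav>Chd1 and 1.03, 2.22 and 3.602 TPM in wild-type libraries (log2 fold change -1.56, SE 0.31, limma adjusted p = 0.0010), and 0.449, 0.252 and 0.696 TPM in Chd1-deficient libraries. That gene passed the filter through wild-type libraries alone, so it had to be lower in elav>Chd1 to be tested. For Cpr62Bc the log2 fold change was -0.28 (SE 0.08, limma adjusted p = 0.0065), not far from the median of all genes. The calls of Lcp1 (higher, log2 fold change 0.45, limma adjusted p = 0.015) and Cpr47Eg (lower, -0.89, limma adjusted p = 0.016) were each lost when certain libraries were left out. Lcp1 had adjusted p = 0.067 without elav>Chd1 replicate 3 and 0.061 without wild-type replicate 2, and Cpr47Eg had 0.053 without elav>Chd1 replicate 2 and 0.063 without wild-type replicate 3. Without a filter on low values the limma adjusted p was 0.053 for Lcp1 and 0.063 for Cpr47Eg. The 3 tested Ccp84A genes were not called. Ccp84Ab had a log2 fold change of -0.36 (limma adjusted p = 0.11), and it was called lower without wild-type replicate 3 (adjusted p = 0.035).

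Proteins of the corneal lens were considered together, since Cpr66D and Cpr72Ec are found in that lens with the lens proteins Crys and retinin. Cpr72Ec had 25.4, 28.3 and 29.1 TPM in Chd1-deficient libraries, 8.88, 8.15 and 9.11 TPM in elav>Chd1, and 7.94, 8.39 and 6.37 TPM in wild-type libraries. elav>Chd1 and wild type overlapped (log2 fold change 0.20, limma adjusted p = 0.088), with a call under median-ratio scaling (adjusted p = 0.022) and without wild-type replicate 2 (adjusted p = 0.035), while Chd1-deficient stood above both (1.81 against wild type, limma adjusted p = 4.8e-08). Cpr66D had 4.23, 3.55 and 3.63 TPM, 2.26, 2.41 and 2.12 TPM, and 0.958, 1.53 and 1.02 TPM in Chd1-deficient, elav>Chd1 and wild-type libraries, in 3 separate steps. Crys stood at 16.1 ± 1.05 TPM in Chd1-deficient, 3.47 ± 0.404 TPM in elav>Chd1 and 2.07 ± 0.190 TPM in wild-type libraries, and retinin at 176 ± 6.09 TPM, 119 ± 3.92 TPM and 31.1 ± 1.02 TPM (SD, n = 3 each). In Chd1-deficient libraries all 4 stood above wild type, with log2 fold changes of 1.38 to 2.69, within the range of the photoreceptor and neuron markers.

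TwdlT was the most abundant Twdl gene, with 3.62, 4.37 and 4.29 TPM in Chd1-deficient libraries, 1.72, 1.77 and 1.65 TPM in elav>Chd1, and 0.772, 0.546 and 0.572 TPM in wild-type libraries. It overlaps the receptor gene RYa-R on the same strand, which averaged 0.346 TPM, 0.244 TPM and 0.0546 TPM in the same order of genotypes, and it lies near Cpr97Ea and Cpr97Eb on 3R. Cpr97Eb stood at 42.4, 43.4 and 39.5 TPM in Chd1-deficient libraries, 7.62, 8.15 and 7.69 TPM in elav>Chd1, and 2.57, 2.896 and 2.93 TPM in wild-type libraries. All 3 of these neighbours were higher in Chd1-deficient than in either other genotype. In elav>Chd1 against wild type, TwdlT and Cpr97Eb were called higher (log2 fold changes 0.97 and 1.34), while Cpr97Ea was not called (-0.07, limma adjusted p = 0.64).

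Other genes of cuticle formation were counted in Chd1-deficient against wild type, where 42.9% of all genes were called higher and 46.0% lower. Among enzymes and transporters of chitin synthesis, 7 of 11 tested genes were higher and 3 lower, with kkv, the chitin synthase, at 2.64 ± 0.138 TPM in Chd1-deficient, 0.442 ± 0.0971 TPM in elav>Chd1 and 0.270 ± 0.0402 TPM in wild-type libraries (SD, n = 3 each). Gfat1, an enzyme of the chitin precursor pathway, had a log2 fold change of 1.70. The 3 lower genes, mmy, nst and Gfat2, averaged 57.9, 29.0 and 23.8 TPM in Chd1-deficient and 75.1, 49.6 and 27.6 TPM in wild-type libraries. The summed level of this list was 162 to 163 TPM in Chd1-deficient, 168 to 175 TPM in elav>Chd1 and 175 to 190 TPM in wild-type libraries. Of chitin deacetylases and obstructor-type chitin-binding proteins, 9 of 10 tested were higher and 1 lower, led by obst-A and verm with log2 fold changes of 3.08 and 3.07. Of chitinases and their relatives 11 of 16 were higher and 4 lower, and Cht4 and Cht5 had 3.41 and 2.85. Of 19 tested pigment and tanning genes, 15 were higher and 4 lower. Pu, a GTP cyclohydrolase needed for pigment and dopamine synthesis, had 67.7 ± 2.29 TPM in Chd1-deficient, 12.9 ± 0.462 TPM in elav>Chd1 and 8.92 ± 1.41 TPM in wild-type libraries (SD, n = 3 each), and e, the enzyme that joins beta-alanine to dopamine, had a log2 fold change of 2.79.

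Cuticle protein genes whose symbols fall outside the rule gave 9 of 11 tested genes higher and 1 lower against wild type. Vajk2 and Vajk3 led them, at 82.3 ± 3.32 TPM and 64.3 ± 1.19 TPM in Chd1-deficient, 8.45 ± 0.165 TPM and 6.19 ± 0.389 TPM in elav>Chd1, and 4.53 ± 0.755 TPM and 3.27 ± 0.442 TPM in wild-type libraries (SD, n = 3 each). All 6 tested apical matrix proteins were higher, among them pio and zye at log2 fold changes of 1.61 and 1.73. Of hormones and transcription factors of cuticle formation, 6 of 9 tested were higher and 3 lower. The higher ones included Burs, a subunit of the tanning hormone bursicon (1.84), and grh, a transcription factor of epidermis (1.35). The 3 lower genes, ftz-f1, Hr39 and crol, averaged 46.3, 18.5 and 41.5 TPM in Chd1-deficient and 70.9, 25.0 and 56.3 TPM in wild-type libraries. Of 7 genes of cuticular hydrocarbon synthesis 6 were higher and 1 was not called, led by Cyp4g15 (1.59) and bond, a fatty acid elongase (1.22). Against elav>Chd1 that last list turned the other way, with 2 of 7 higher in Chd1-deficient and 4 lower, where 34.7% of all genes were called higher and 33.7% lower. Its summed level was 674 to 718 TPM in Chd1-deficient, 1003 to 1013 TPM in elav>Chd1 and 322 to 343 TPM in wild-type libraries. Most of each sum was Cyp4g1, with means of 600, 877 and 268 TPM in the same order.

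The authors' deposited table for Chd1-deficient against wild type, restricted by its title line to a log2 fold change of 1 or more, lists 57 of the 119 genes, 52 positive and 5 negative. Of all 5307 genes in the authors' deposited table for that comparison, 95.5% are positive. It gives 14 cuticle protein genes that failed the filter here, among them TwdlN at -6.17, a gene that stood at 0 TPM in all 3 Chd1-deficient libraries, at 0.278, 0 and 0.110 TPM in elav>Chd1 and at 0.858, 0.708 and 0.768 TPM in wild-type libraries. The authors' deposited table for Chd1-deficient against elav>Chd1 lists 39 of the 119, with 32 positive and 7 negative, where 92.4% of its genes are positive. All 43 and 30 listed genes that were tested here had the sign of the authors' deposited tables. TwdlN was chosen after its values were seen.

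Cpr, the P450 reductase that the symbol rule also caught, behaved apart from the cuticle genes. It had 107, 117 and 111 TPM in Chd1-deficient libraries, 129, 138 and 138 TPM in elav>Chd1, and 149.7, 147 and 124 TPM in wild-type libraries. Its log2 fold change to wild type was -0.33 in Chd1-deficient libraries (SE 0.07, limma adjusted p = 7.8e-04).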

How the data were processed

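Per the labels, total RNA of 9 samples was sequenced on a nanoball system. The deposited files hold TPM per gene, made by the authors. Salmon and DESeq2 are named in the submitters' processing notes, with no version and no role. The genome build: not given in the sources used here. Also deposited by the authors were 2 tables with log2 fold changes and an adjusted p-value per gene.

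From the TPM, limma-trend was fitted to log2(TPM + 0.5) over all 9 libraries with 1 mean per genotype, for the 11094 genes that had 1 TPM or more in 3 or more libraries. Adjusted p is Benjamini-Hochberg over those genes, with a threshold of 0.05. Fold changes on this scale understate the change of low genes. The procedure was tested on simulated data. All 120 symbols matched the Ensembl 115 annotation of dm6, the source of coordinates and neighbours. No table of gene or protein sequences was used here.

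Cuticle genes named are the 12 highest by mean TPM, per comparison up to 8 called rises and 8 called falls by size where either group averaged 5 TPM (falls: 1 TPM), the highest of each family, Cpr66D and Cpr72Ec, and, against wild type, the 2 largest called changes of each list of other cuticle genes, with retinin, Crys and Chd1. Any other name was chosen with its values known. Members and lists were chosen with earlier results of these data known. Alternatives were other filters, pseudocounts and scaling, fits of 2 groups, each library left out and a replicate block. Tools were R 4.3.3, limma 3.58.1, Python 3.11.15, pandas 2.3.3 and matplotlib 3.10.9.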

Additional observations from a re-analysis of the deposited data

How the results depend on the processing

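Counts depended mainly on the filter, since fewer genes are tested under a stricter one. With at least 10 TPM in 3 libraries, 18 cuticle genes were tested: 17 were higher and 1 lower in Chd1-deficient against wild type, 15 and 2 in Chd1-deficient against elav>Chd1, and 14 and 1 in elav>Chd1 against wild type. Genes that reached 10 TPM in Chd1-deficient libraries alone had to be higher there in both of its comparisons. For Cpr47Ea, Cpr57A, Cpr67B and Cpr92F the filter was met without wild-type libraries, and for Lcp1 without Chd1-deficient libraries. With the filter on the genotype not compared, chosen after seeing the data, the counts were 23 and 1, 13 and 2, and 27 and 1 in the same order. Without a filter, 12 were lower in Chd1-deficient against elav>Chd1. Past a log2 difference of 1, 3 were lower there and 2 in elav>Chd1 against wild type. With each library left out, 40 to 40 were higher and 4 to 4 lower in the first comparison, 33 to 35 and 5 to 7 in the second, and 27 to 31 and 3 to 6 in the third. The number of genes at 1 TPM was then 44 to 46 in Chd1-deficient, 32 to 32 in elav>Chd1 and 24 to 25 in wild type.

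Replicate numbers did not pair the libraries: correlations of same-numbered deviations ran from -0.155 to 0.108. With replicate number as a block, the counts were 40 and 4, 34 and 6, and 32 and 5. For the named genes, 1055 of 1077 alternative values kept their direction and call, 6 lost and 11 gained a call, and 5 turned sign, none of them called. Over the fits without 1 library, the lowest and highest log2 fold changes were -0.13 and 0.33 for Cpr65Ea and -0.061 and 0.24 for TwdlF in Chd1-deficient against wild type, -0.047 and 0.29 for Cpr65Ax2 in Chd1-deficient against elav>Chd1, and -0.20 and 0.020 for Cpr97Ea in elav>Chd1 against wild type. The sign turned without Chd1-deficient replicate 3 for Cpr65Ea, without Chd1-deficient replicate 2 for TwdlF, without Chd1-deficient replicate 3 or elav>Chd1 replicate 3 for Cpr65Ax2, and without elav>Chd1 replicate 1 for Cpr97Ea. The cause was not tested. Cpr47Eg gained a call in Chd1-deficient against elav>Chd1, as did Lcp65Ag3 there, and Cpr49Aa, Cpr72Ec and Ccp84Ab in elav>Chd1 against wild type. Depth is unknown, so the counting error, largest relative to the value near 0 TPM, could not be computed.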
